A study of Rattus norvegicus with 10 samples.

Results

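The genes described here encode 10 enzymes of mitochondrial fatty acid beta-oxidation, and their expression was compared between livers of rats given RG3487 and livers of rats given vehicle. The 10 are Cpt1a, Cpt2, Acadm, Acads, Acadsb, Acad10, Hadha, Hadhb, Hadh and Decr1. They were chosen by name, with earlier results of these data known. Every probe set that the platform annotation gives to exactly 1 of these symbols was taken. This gave 13 probe sets for all 10 genes, out of 9378 genes with such a probe set on the array. RNA of 10 CRL:WI (Han) rats aged 6 to 8 weeks was hybridised to Affymetrix arrays, 1 array per animal. The 5 vehicle rats received deionized water and the 5 treated rats RG3487 at 180 mg/kg, both by gavage in 5 ml/kg. RG3487 is known as a ligand of the nicotinic acetylcholine receptor encoded by Chrna7. The sample labels place the livers at 24 h after dosing, whereas the series text names 2 h. Sex is not stated in the labels. Animals were caged by 5, and which animals shared a cage is not stated in the labels, so the part of caging in the results was not tested.

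Beta-oxidation shortens fatty acids inside mitochondria and supplies the liver with acetyl-CoA for ketone bodies and with reducing power for respiration. Long acyl chains cross the mitochondrial membranes as carnitine esters, and then pass repeatedly through dehydrogenation, hydration, a second dehydrogenation and thiolytic cleavage. Chain-length-specific acyl-CoA dehydrogenases, the trifunctional protein and a shorter-chain hydroxyacyl-CoA dehydrogenase carry out these steps, and a dienoyl-CoA reductase allows polyunsaturated chains to enter. In liver the pathway is raised by fasting, and many of its genes are known targets of the fatty acid receptor encoded by Ppara.

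The deposited values were MAS5 signals whose array means lay between 329.97 and 331.76. The median signal was 85 to 93 on vehicle arrays and 92 to 96 on RG3487 arrays, and the highest signal was 10418 to 11392 and 9113 to 10252. The 9 measured hepatocyte markers had signals of at least 1116 on every array, and the mean of each was lower with RG3487. Alb changed least, at 6959 ± 433 in the vehicle group and 6895 ± 728 with RG3487 (SD, n = 5 each). Tat changed most, at 2168 ± 729 and 1320 ± 294. Their summed signal was nevertheless 61484 to 65094 with vehicle and 50894 to 60442 with RG3487, and 5 of the 9 were called lower. The summed signal of 6 Kupffer cell markers was 2774 to 3543 and 1970 to 2648, with 2 of 6 lower. Much of that fall was in Cd14, named after its values were seen, at 1594 ± 155 and 960 ± 217 (SD, n = 5 each). The sum of 5 endothelial markers was 2955 to 3381 and 2447 to 2892, with 2 of 5 lower. The sums of stellate, cholangiocyte, leukocyte and red blood cell markers overlapped between the groups. No marker of these lists was at 0 on all arrays. Markers of the same list changed to different degrees, as Alb and Tat show. The part of changes in single marker genes was not tested. In whole liver RNA, fewer cells of a type and less RNA per cell cannot be told apart, and the part of array scaling in these sums was not tested.

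Of the 10 enzyme genes, 8 fell with RG3487 and 0 rose, and the other 2 were the carnitine palmitoyltransferase genes Cpt1a and Cpt2. A gene was represented by its brightest probe set, a change is the difference of mean log2(signal + 16) as RG3487 minus vehicle, and a call is an adjusted p under 0.05 in limma with Benjamini-Hochberg adjustment over all 11894 probe sets tested. Among all 7727 genes tested, 7.4% were called lower and 22.3% higher. Among the 773 brightest, the top 10%, 27% were called lower and 23% higher. Because the 10 genes were chosen with earlier results known, these shares are a background and not an independent test. The median change of the 10 enzyme genes was -0.41, against 0.09 for all genes, and their changes ran from -1.06 to -0.12. In 7 of the 10 all RG3487 livers lay below all vehicle livers, a pattern found in 4.78% of genes tested. Its share among the brightest 10% was not computed. Of the 13 probe sets, 11 passed the filter on dim signals. The 2 left out were second probe sets of Hadha, at 18 to 42, and of Hadh, at 13 to 29, both with overlapping groups.

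**Figure D1:**
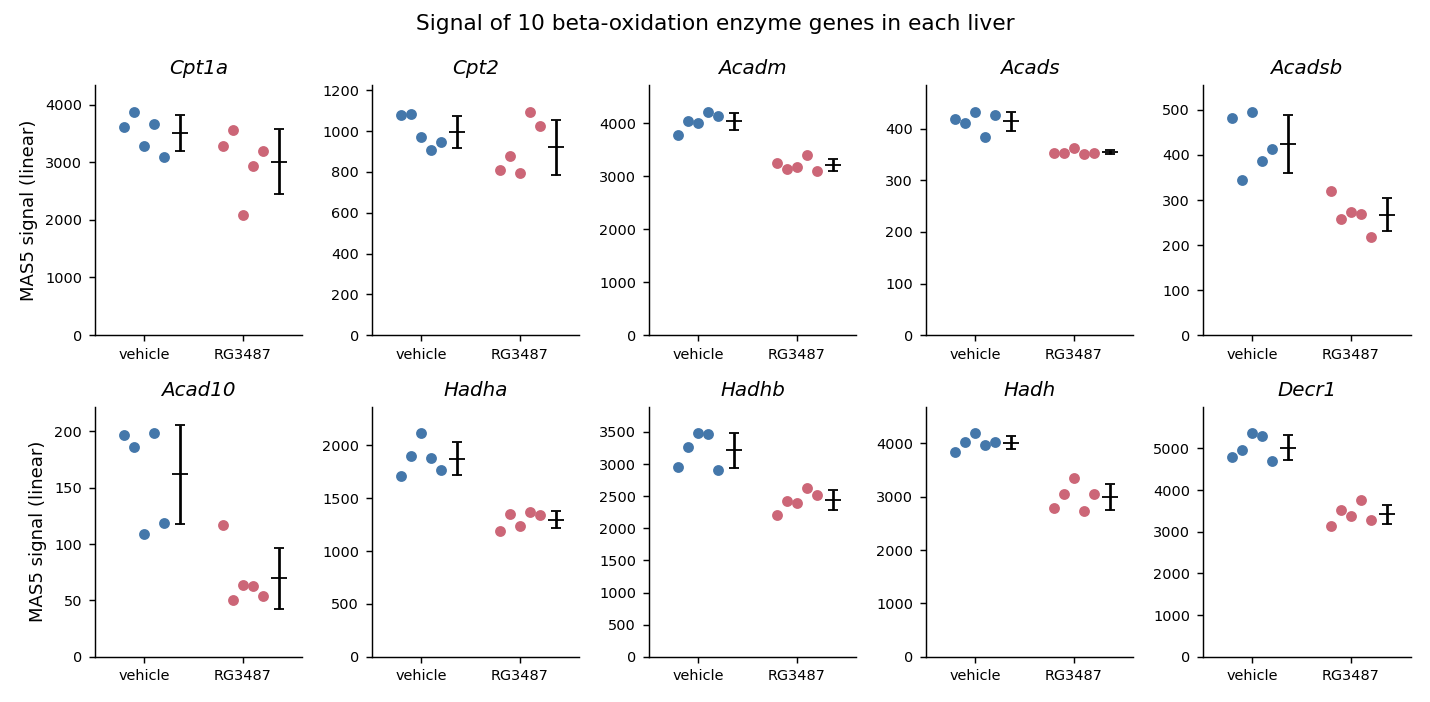
MAS5 signal on a linear scale of the brightest probe set of each of the 10 enzyme genes, 1 point per liver, with vehicle in blue and RG3487 in red. Black marks show the group mean and SD of 5 livers. The groups are separate for Acadm, Acads, Acadsb, Hadha, Hadhb, Hadh and Decr1 and overlap for Cpt1a, Cpt2 and Acad10.

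The carnitine shuttle was examined first. Cpt1a, the outer-membrane enzyme that commits long acyl chains to oxidation and is inhibited by malonyl-CoA, had signals of 3605, 3876, 3278, 3667 and 3097 in the vehicle livers and 3286, 3554, 2090, 2928 and 3196 in the RG3487 livers. The groups overlapped, and RG3487 animal 3 lay far below the rest. The change was -0.24 ± 0.12 (SE, 95% interval -0.50 to 0.03; limma adjusted p = 0.166), and without RG3487 animal 3 it was -0.11. A second Cpt1a probe set read 1426, 1586, 1320, 1523 and 1027 with vehicle and 1389, 1610, 814, 1431 and 1568 with RG3487. The same animal was lowest, and the change of -0.04 ± 0.17 (limma adjusted p = 0.891) became 0.14 without it.

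Cpt2, the inner-membrane enzyme that returns the acyl group to CoA, read 1077, 1082, 970, 905 and 946 with vehicle and 807, 879, 793, 1095 and 1027 with RG3487. The groups were interleaved, since 3 RG3487 livers lay below all vehicle livers and 1 above them. The change was -0.12 ± 0.09 (95% interval -0.33 to 0.08; limma adjusted p = 0.362). The intervals of both shuttle genes include 0 and also overlap that of Acadm (-0.43 to -0.23), and whether they changed less than the matrix enzymes was not tested.

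The acyl-CoA dehydrogenases carry out the first step of each round. Acadm, which acts on medium chains, had signals of 3782, 4053, 4002, 4221 and 4138 with vehicle and 3258, 3135, 3183, 3396 and 3096 with RG3487. The lowest vehicle liver stood well above the highest RG3487 liver, and the mean signal dropped by 20.4% (change -0.33 ± 0.05, limma adjusted p = 0.000468).

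Acads, the short-chain enzyme, read 418, 411, 433, 385 and 426 with vehicle and 353, 353, 363, 352 and 353 with RG3487. The treated livers were nearly identical to each other and all lower than the controls. The change was -0.21 ± 0.05 (limma adjusted p = 0.0116), a mean signal of 415 ± 19 against 355 ± 4.6 (SD, n = 5 each).

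Acadsb, the enzyme of short branched chains that also acts in isoleucine breakdown, read 481, 344, 496, 387 and 413 with vehicle and 320, 258, 273, 268 and 218 with RG3487. The spread within each group was wider here, and the groups were still separate. The change was -0.63 ± 0.11 (1.55-fold lower, limma adjusted p = 0.00191).

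Acad10, a less studied member of the same family, had the largest change of the 10 and the dimmest signal. It read 197, 186, 109, 198 and 119 with vehicle and 117, 50, 64, 63 and 54 with RG3487. RG3487 animal 1 lay between the vehicle livers while the other 4 lay below all of them. The change was -1.06 ± 0.21 (2.09-fold lower, limma adjusted p = 0.00304), but the exact rank-sum test did not call it (adjusted p = 0.0647, range over alternatives 0.000916 to 0.0647).

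Hadha and Hadhb encode the alpha and beta subunits of the mitochondrial trifunctional protein, which carries out the last 3 steps on long chains. Their genes lie head to head in RefSeq and share most of the sequence before their starts, so their start regions are shown. The pair was picked with its values known. Whether the shared sequence had a part in the changes of the 2 genes was not tested. The windows hold 250 bases before and 50 after each gene's start in the GRCr8 build, 5′ to 3′ on each gene's strand, with the 200 bases that both windows share in capitals.
Hadha, chr6:31907551-31907850, plus strand: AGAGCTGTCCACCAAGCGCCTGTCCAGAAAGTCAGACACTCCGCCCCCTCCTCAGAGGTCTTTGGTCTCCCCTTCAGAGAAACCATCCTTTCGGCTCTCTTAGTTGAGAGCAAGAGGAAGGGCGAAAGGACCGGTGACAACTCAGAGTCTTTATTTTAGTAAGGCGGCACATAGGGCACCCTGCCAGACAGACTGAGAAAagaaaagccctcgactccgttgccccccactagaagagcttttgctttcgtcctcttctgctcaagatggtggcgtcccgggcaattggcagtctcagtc
Hadhb, chr6:31907451-31907750, minus strand: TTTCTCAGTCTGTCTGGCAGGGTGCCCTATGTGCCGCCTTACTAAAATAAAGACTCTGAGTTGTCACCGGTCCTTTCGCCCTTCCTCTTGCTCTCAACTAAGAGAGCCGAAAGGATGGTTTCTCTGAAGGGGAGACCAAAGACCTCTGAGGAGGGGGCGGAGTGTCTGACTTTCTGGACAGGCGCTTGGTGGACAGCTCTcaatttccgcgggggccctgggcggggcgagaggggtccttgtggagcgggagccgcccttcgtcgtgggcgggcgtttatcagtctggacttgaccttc
Both capital stretches are the same 200 bases of the chromosome read from opposite strands, so they are reverse complements by construction. The 2 start sites lie 301 bases apart. A divergent start within 1000 bases is annotated for 9.31% of all 33469 genes with a window, and among the enzyme genes also for Acad10, Acadsb and Cpt2. The measured partners of the first 2, named after their values were seen, did not pass: Brap, beside Acad10, changed by 0.26 ± 0.11 (limma adjusted p = 0.083), and Ikzf5, beside Acadsb, by -0.15 ± 0.07 (limma adjusted p = 0.0978). The partner of Cpt2 was not analysed here.

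Hadha read 1714, 1897, 2112, 1877 and 1765 with vehicle and 1189, 1352, 1241, 1372 and 1339 with RG3487. All treated livers were below all controls, and the mean signal dropped by 30.7% (change -0.52 ± 0.07, limma adjusted p = 0.000273). Its dim second probe set, tested only without the filter, had a change of -0.31 ± 0.12 (limma adjusted p = 0.0834). Hadhb read 2955, 3271, 3475, 3462 and 2905 with vehicle and 2214, 2432, 2391, 2625 and 2521 with RG3487. Its groups were also separate, with a mean signal that dropped by 24.2% (change -0.40 ± 0.07, limma adjusted p = 0.00137). In both genes vehicle animal 3 was the highest control, RG3487 animal 1 the lowest treated liver and RG3487 animal 4 the highest treated liver. The same animals held these places for Decr1 (5355, 3139 and 3754), so this order was not particular to the head-to-head genes.

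The last members act on shorter or unsaturated chains. Hadh, the hydroxyacyl-CoA dehydrogenase of short and medium chains, read 3847, 4034, 4185, 3961 and 4021 with vehicle and 2797, 3056, 3347, 2735 and 3049 with RG3487. The mean signal dropped by 25.3% with no overlap between the groups (change -0.42 ± 0.06, limma adjusted p = 0.000428). Decr1, the dienoyl-CoA reductase that prepares polyunsaturated chains for the spiral, read 4782, 4966, 5355, 5295 and 4693 with vehicle and 3139, 3513, 3387, 3754 and 3283 with RG3487. Its mean dropped by 31.9% (change -0.55 ± 0.06), and at a limma adjusted p of 9.92e-05 it had the smallest p of the 10 genes.

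**Figure D2:**
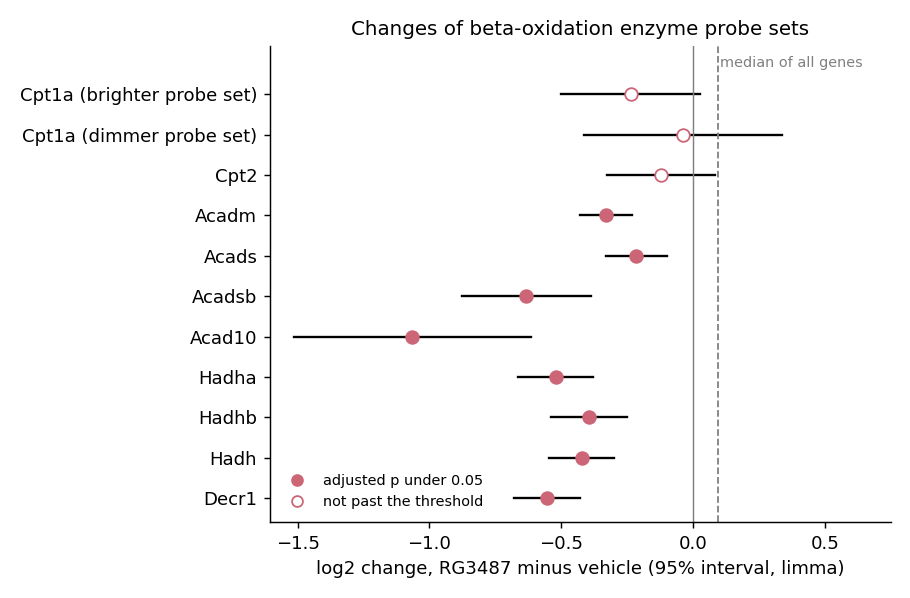
Log2 change (RG3487 minus vehicle) of the 11 tested probe sets with its 95% interval from limma, filled where the adjusted p was under 0.05. The dashed line marks the median of all genes at 0.09. All 11 estimates lie below 0, and the intervals of Cpt1a and Cpt2 include 0.

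Across animals, the 10 genes were compared with the vehicle range of each. In RG3487 animals 1 to 5, respectively 8, 9, 10, 9 and 8 of the 10 genes lay below every vehicle liver. The share of all genes that did so in each animal was not computed, so these counts have no background. For all RG3487 livers together that share was 4.78% of genes tested, and it was not computed for the brightest genes. The mean of the 10 log2 values, centred on the vehicle means, was between -0.09 and 0.03 in vehicle livers and between -0.51 in RG3487 animal 3 and -0.40 in animals 1 and 4. The mean of each treated liver thus lay below that of each vehicle liver.

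Ratios between 2 members on the same array do not depend on a constant factor per array, and 4 pairs were compared by an exact two-sided permutation test over animals. The log2 value of Hadha minus that of Hadhb was -0.77 ± 0.07 (SD, n = 5) with vehicle and -0.90 ± 0.04 (n = 5) with RG3487, a difference of -0.13 (exact p = 0.0159, adjusted p = 0.0635 over 4 pairs). The groups overlapped, and the pair passed with quantile normalization (-0.17) and without vehicle animal 4 (-0.15), both at an adjusted exact p of 0.0317 (range over alternatives 0.0317 to 0.127). For Cpt1a minus Cpt2 the difference was -0.12 (exact adjusted p = 0.413), for Hadha minus Hadh -0.10 (exact adjusted p = 0.317) and for Acadm minus Acads -0.11 (exact adjusted p = 0.111). The last turned to 0.07 with quantile normalization. With 5 against 5 the smallest p of this test is 0.00794.

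The size of these changes depended on how the arrays were scaled. The 18 hybridization control probe sets measure transcripts of bacteria and phage added to each sample. Their mean log2 signal was 9.80 to 9.89 on vehicle arrays and 9.61 to 9.68 on RG3487 arrays, without overlap. Scaled to these controls, 7 of the 10 enzyme genes were lower and 0 higher. Acads then changed by -0.02 (limma adjusted p = 0.789, range over alternatives 0.00248 to 0.882) and Cpt2 by 0.07. This scaling assumes equal additions to every sample, for which no source is at hand. Scaled to the 9 hepatocyte markers, chosen after seeing the data, 5 were lower and 0 higher: Acadsb, Acad10, Hadha, Hadh and Decr1. Acadm (-0.13, limma adjusted p = 0.092, range 0.000348 to 0.092) and Hadhb (-0.20, limma adjusted p = 0.0734, range 0.000804 to 0.0734) then did not pass, nor did Acads. Tat, the marker with the largest fall, was part of this scale, and a version without it was not tried. Both scalings moved the median of all genes, from 0.09 to 0.29. Relative to the median of all genes, that of the 10 genes was -0.50 as deposited, when arrays were centred on their medians and under both of these scalings, as a constant per array requires, and -0.39 with quantile normalization. With quantile normalization or median centring the enzyme counts were 8 lower and 0 higher. Of the calls over all probe sets, 25.9% were lower as deposited, 45.6% with quantile normalization, 49% with median centring, 5.03% with the hybridization controls and 4.9% with the hepatocyte markers.

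**Figure D3:**
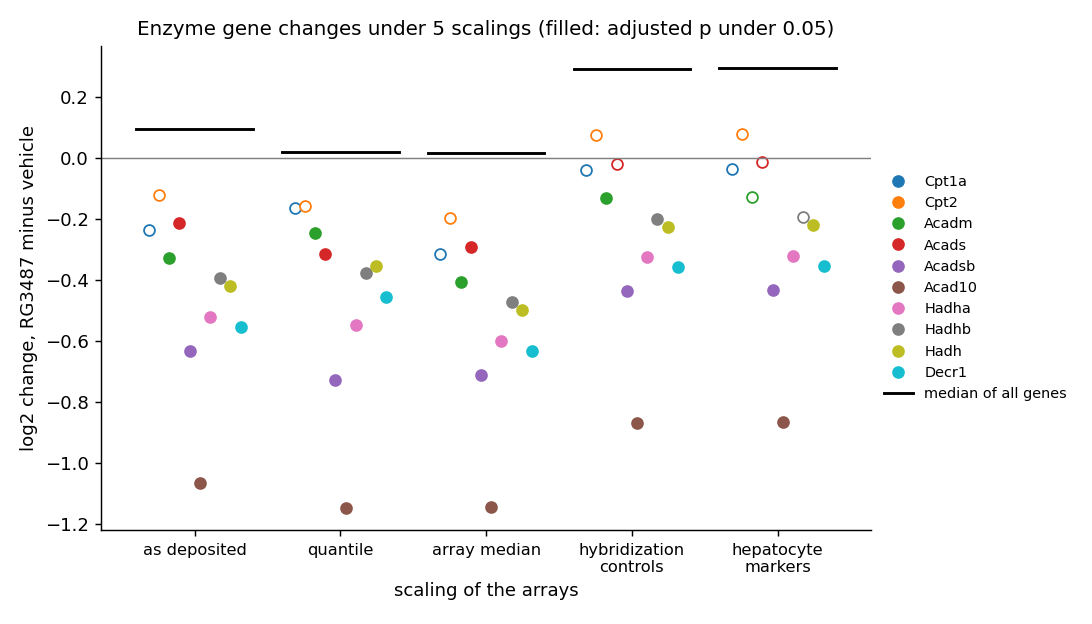
Log2 change of each of the 10 enzyme genes under 5 scalings of the arrays, filled where limma's adjusted p was under 0.05. Black bars show the median of all genes. Decr1, Hadha, Hadh, Acadsb and Acad10 are filled under each of the 5 scalings, and Cpt1a and Cpt2 under none.

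A further list of 23 genes held other carnitine genes, enzymes of the spiral and electron transfer, and auxiliary enzymes. It also held related acyl-CoA dehydrogenases, some of them of amino acid breakdown. Of its 22 measured genes 9 were lower and 0 higher, with a median change of -0.21 and a negative value in 22 of 22. Of all genes tested 7.4% were called lower, 27% in the brightest 10%, and 33.8% had a negative value. The share of negative values in the brightest 10% was not computed. Slc22a5, which takes carnitine up into the cell, fell from 373 ± 39 to 193 ± 35 (change -0.91 ± 0.12, limma adjusted p = 0.000301). Acad8, the dehydrogenase of valine breakdown, fell from 183 ± 12 to 132 ± 7.2 (-0.43 ± 0.07). Gcdh, the glutaryl-CoA dehydrogenase of lysine breakdown, changed by -0.47 ± 0.08 and the carnitine acetyltransferase gene Crat by -0.66 ± 0.12.

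Genes of the central steps were named after their values were seen. The long-chain dehydrogenase gene Acadl changed by -0.21 ± 0.06 (limma adjusted p = 0.028) and the hydratase gene Echs1 by -0.42 ± 0.14 (limma adjusted p = 0.0349). Etfa, a subunit of the flavoprotein that takes electrons from the dehydrogenases, changed by -0.20 ± 0.06 (limma adjusted p = 0.0198), whereas its partner Etfb did not pass (-0.04 ± 0.07). The very-long-chain dehydrogenase gene Acadvl (-0.18 ± 0.06, limma adjusted p = 0.0514) and the thiolase gene Acaa2 (-0.23 ± 0.12, limma adjusted p = 0.195) did not pass. The carnitine-acylcarnitine translocase gene Slc25a20, which works between Cpt1a and Cpt2, changed by -0.09 ± 0.07 (limma adjusted p = 0.407). All 3 of these shuttle genes were therefore without a call, whereas the carnitine genes Slc22a5 and Crat, given above, were called lower. The list's count fell to 4 lower and 2 higher with the hybridization controls, to 3 lower and 1 higher with the hepatocyte markers, and to 5 lower with the exact rank-sum test.

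Of 12 regulators, 11 were on the array and 9 passed the filter, of which 1 fell and 2 rose, shares near the 7.4% lower and 22.3% higher of all genes. Lpin1, a phosphatidate phosphatase that also acts as a coactivator of the Ppara product, fell from 352 ± 81 to 176 ± 32 (-0.93 ± 0.15, limma adjusted p = 0.00122). The nuclear receptor genes Hnf4a (0.29 ± 0.06, limma adjusted p = 0.00653) and Nr1h3 (0.30 ± 0.07, limma adjusted p = 0.00898) rose. With median centring 1 regulator was higher, and 4 were with the hybridization controls or the hepatocyte markers. The 2 left out as dim, named after their values were seen, were Ppara and the coactivator gene Ppargc1a. Ppara read 31.2 ± 12.9 and 28.6 ± 17.1 (SD, n = 5 each). Ppargc1a read 34.2 ± 13.7 and 14.6 ± 6.6, and without the filter its change was -0.69 ± 0.19 (limma adjusted p = 0.0235).

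Neighbouring pathways are given by counts. Of 11 measured peroxisomal oxidation genes 8 were lower and 0 higher, with a median of -0.29, beside 7.4% lower among all genes and 27% among the brightest 10%. Ehhadh, the peroxisomal bifunctional enzyme, changed by -2.03 ± 0.23, Pex11a by -1.33 ± 0.17, the peroxisomal reductase gene Decr2 by -0.56 ± 0.07 and Ech1 by -0.54 ± 0.07. Decr1 and Decr2, the mitochondrial and peroxisomal dienoyl-CoA reductases, thus had changes of -0.55 and -0.56. Both measured ketone body genes, a list too short to set against those shares, were lower, Acat1 by -0.48 ± 0.07 and Bdh1 by -0.26 ± 0.06. Whether the mitochondrial enzymes differed from these lists was not tested. With the hybridization controls or the hepatocyte markers 4 peroxisomal genes and 1 ketone body gene were lower.

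**Figure D4:**
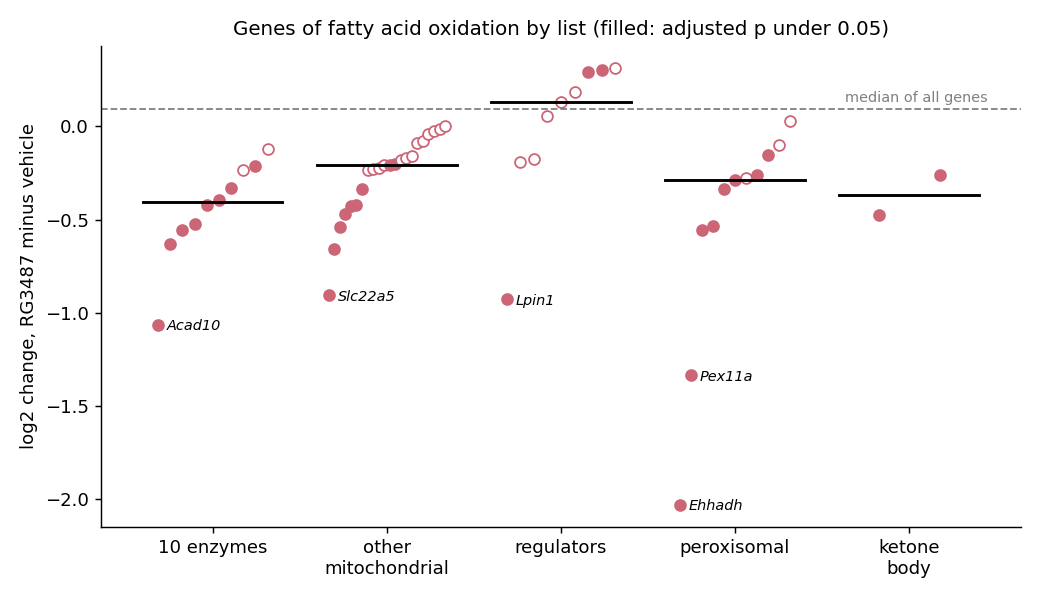
Log2 change of each measured gene in the 10 enzyme genes and 4 further lists, filled where limma's adjusted p was under 0.05, with the median of each list as a black bar and that of all genes as a dashed line. Values of the 10 enzymes run from -1.06 to -0.12, and the regulators are the list with points well above 0.

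The 3 other genes whose 10 values lay closest to the mean profile of the enzyme genes, out of 7717, were Mga, a transcription factor gene (root mean square difference 0.041 on the log2 scale, change -0.47), Pros1, which encodes the anticoagulant protein S (0.056, -0.43), and Tpp1, a lysosomal peptidase gene (0.056, -0.48). The enzyme genes themselves lay 0.098 (Hadhb) to 0.54 (Acad10) from their mean. The other 3 lay closer to it, but they were picked as the closest of 7717. Their closeness therefore does not measure how alike the enzyme genes are.

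Start regions of 9 of the 10 genes were given in RefSeq's GRCr8 windows, and Decr1 had none. They were searched on both strands for the nuclear receptor half-site AGGTCA and for 2 such half-sites in the same orientation with 1 base between them, the form bound by the Ppara product with its partner. The half-site was found in 1 of 9 windows, that of Hadhb at bases 293 to 298 as TGACCT, and in 16.2% of all 33469 windows. With up to 2 mismatches over the 12 fixed letters the repeat was found in 0 of 9 windows and in 3.77% of all. With 3 mismatches it was found in 3 of 9, Hadha, Hadhb and Hadh, and in 24.9% of all, and the matches of Hadha (bases 56 to 68) and Hadhb (bases 133 to 145) are the same bases in the shared stretch printed above. No match in such a window says only that these letters are not there.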

How the data were processed

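Liver RNA of 10 rats was measured, 5 per group, with labelling from 1 ug of RNA. The deposited table holds linear signal intensities, made by the authors with MAS5 per the submitters' processing notes, whose version and target mean the sources used here do not give. Of 15899 probe sets, 40 are controls, 12562 carry 1 gene, 332 several and 2965 none; 0 symbols changed through the Entrez identifier in RefSeq's GRCr8 gene table. Signals were taken as log2(signal + 16), and control probe sets and the dimmest 25% by mean over all arrays were left out. The pseudocount understates folds of dim genes. Groups were compared over all 11894 remaining probe sets with limma 3.58.1 in R 4.3.3 (lmFit, eBayes with trend; two-sided). The code was tested on simulated data. With 5 arrays a group, their number limits the precision. The replicate numbers name different animals, and the main comparison did not treat the samples as pairs.

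The genes, lists and tests were chosen with earlier results of these data known. Named genes are all probe sets of the 10 enzymes, up to 4 called genes with the smallest p of each further list, and the 3 genes closest to the enzymes' mean profile. Marker lists of stellate cells (0 lower and 1 higher of 5 tested), cholangiocytes (0 of 1 called), leukocytes (0 of 1) and red blood cells (0 of 2) were also measured. Alternatives were 2 pseudocounts, 4 scalings, 2 filters, eBayes settings, array weights, the replicate block, an exact rank-sum test, other thresholds, other ways to pick a probe set, and omission of each array in turn. Scaling to the hepatocyte markers was added after seeing the data.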

Additional observations from a re-analysis of the deposited data

Results flagged for a closer look

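Dixon's ratio was computed for 66 groups of 5 values, and 6 exceeded the critical value of 0.71, where chance gives about 1 in 20. In the second Cpt1a probe set RG3487 animal 3 read 814, against 1389 to 1610 in the others. Acads read 363 in the same animal, against 352 to 353, a small distance that stands out because the others were so alike. In Acad10 RG3487 animal 1 read 117, against 50 to 64. In Gcdh RG3487 animal 3 read 2002, against 1500 to 1618, and in Hnf4a RG3487 animal 2 read 2545, against 2840 to 2950. The median signal of the array of RG3487 animal 3 was 92, against 95 to 96. Without RG3487 animal 3 the count of enzyme genes called lower was 8, as it was without each other animal.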

How the results depend on the processing

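The counts of enzyme genes and of their probe sets, 8 lower and 0 higher, were 8 and 0 without each animal in turn. Scaled to hepatocyte markers, 5 were lower, and 2 with a 1.5-fold threshold added, Acadsb and Acad10. Under the 1.5-fold threshold 2 genes of the list of 23, 0 rising regulators, 2 peroxisomal genes and 0 ketone body genes were called. With spike-in scaling the genes of the list of 23 were 4 lower and 2 higher, regulators 4 higher, peroxisomal genes 4 lower and ketone body genes 1 lower. Scaled to hepatocyte markers these were 3 lower and 1 higher, 4 higher, 4 lower and 1 lower. Genes of the list of 23 were 5 lower with the rank-sum test, regulators 2 lower with no filter and 1 higher with median centring. Directions turned only where no call had been made: Cpt2 was 0.075 with spike-in scaling and 0.079 scaled to hepatocyte markers, and the second Cpt1a probe set was 0.16 under both and ranged from -0.14 to 0.14 without 1 animal. Acadm minus Acads was 0.070 with quantile normalization. Hadha minus Hadhb was -0.17 there and ranged from -0.15 to -0.11 without 1 animal. The promoter repeat was found in 3 genes with 3 mismatches. Causes of these shifts were not tested beyond what each scaling itself changes. Same-numbered animals correlated at -0.037 to 0.17, values too few to show whether the numbers pair them. With the replicate block 8 enzyme genes were lower and 0 higher, as without it. The Affymetrix signals carry no read depth, and probe sets with signals near the pseudocount of 16 are the least precise.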
